A study of Mus musculus with 8 samples.

Results

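A small set of genes on Affymetrix mouse arrays read high in the spleens of one genotype and low or near background in those of the other. The set holds 10 genes of 18193 with a probe set that the annotation gives to them alone: Ccnb1ip1, BC018473, Lmbr1, 2500002B13Rik, Fn3krp, Ammecr1, Gfap, Dph5, Spata5l1 and Ang. They were chosen by the gap between Nix-null and wild-type arrays in at least 1 of their probe sets, measured on these same 8 arrays, so the genotype differences of the members below are a description and carry no test. All 20 probe sets annotated to the 10 symbols were read, whether or not they showed the difference. Of these, 12 passed the filter used for testing, which asks that at least 4 of the 8 arrays read a log2 intensity of 5 or more, and 8 did not. In 4 of the 10 genes, BC018473, Ccnb1ip1, Fn3krp and Ang, the probe set passed only through the high genotype, so that it had to differ. The label "near all-or-none" held in that sense for these 4. The other 6 read at least 5 in some or all arrays of their low genotype.

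The samples were whole spleens of mice aged 8 weeks, each hybridised to its own array without pooling. The 4 Nix-null animals (Nix-/-, called Nix_KO 10, 2, 3 and 6 after the numbers in their titles) lacked Nix, which is encoded by Bnip3l, and the 4 wild-type animals (WT 3, 4, 5 and 6) carried it, both per the labels. No treatment was given to either genotype. The strain, the sex, the way the null allele was made and the part of the gene it removes are not given in the sources used here, so whether the genotypes share a genetic background is not known. Values in this text are log2 intensities after GCRMA, a method that corrects background, normalises arrays and summarises the probes of each probe set. They are given in the array order 10, 2, 3 and 6 for Nix_KO and 3, 4, 5 and 6 for WT. A log2 difference is the Nix_KO mean minus the WT mean. The gap is the distance from the lowest array of the higher genotype to the highest array of the lower genotype, and it is negative where the genotypes overlap. Where arrays read below 5, a fold is given as a lower bound with those values set to 5. Values below 5 have no order among themselves, and a gap or difference against a genotype that lies wholly below 5 rests in part on background levels.

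Nix is a mitochondrial outer membrane protein of the BCL2 family that marks mitochondria for removal while red cells mature, and mice without it are known for an enlarged spleen full of red cell precursors. The 10 genes are not known to share a pathway. Ccnb1ip1 encodes HEI10, an E3 ligase needed for crossovers in mouse meiosis and first found as a partner of cyclin B. Lmbr1 encodes a membrane protein of many passes, and one of its introns holds a limb enhancer of Shh. Fn3krp encodes a kinase that removes sugar adducts from proteins. Ammecr1 is named for a human X-linked deletion syndrome that includes elliptic red cells. Gfap encodes the intermediate filament of astrocytes. Dph5 encodes the methyltransferase of the pathway that builds diphthamide, a modified histidine of elongation factor 2. Spata5l1 encodes an AAA ATPase related to VCP, which in human cells acts in ribosome maturation. Ang encodes angiogenin, a secreted ribonuclease. BC018473 and 2500002B13Rik are listed as long noncoding RNA genes in the RefSeq mouse gene table.

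A large share of all probe sets differed between the genotypes, which sets the background for every count below. Of 22347 tested probe sets, 6711 passed limma at an adjusted p of 0.05 (30.0%), 2789 of them higher in Nix_KO (12.5%) and 3922 lower (17.6%). For 7726 (34.6%) the 4 Nix_KO values all lay on one side of the 4 WT values. A gap of at least 1 log2 unit was rarer, in 281 probe sets (1.26%), 10 of them the main probe sets of the members, and a gap of at least 2 was found in 16 (0.0716%), 4 of them of members. The members' shares follow from how they were chosen and are not read against these. Array medians were close, 28.84 to 30.61 on the linear intensity scale. Nix_KO 3, WT 3 and WT 5 carried signal of pancreatic acinar genes: a list of such genes, 14 on the array, averaged 5.09, 5.95, 12.52 and 5.61 in Nix_KO arrays and 11.60, 7.01, 9.46 and 5.67 in WT arrays. The spleen transcription factor list averaged 7.03, 6.87, 6.98 and 7.37 in Nix_KO arrays and 7.68, 7.72, 7.75 and 7.75 in WT arrays. The 3 probe sets for Bnip3l are shared with its pseudogene and had signal in every array of both genotypes, so they did not check the genotype labels. In whole spleen, fewer cells of a type and less RNA per cell cannot be told apart.

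RefSeq promoter windows, 250 bases before to 50 after the start on GRCm38.p6, matched 9 of the 10 members and gave 10 windows. Each was searched on both strands for AGATAA, the core bound by GATA1, and for CCNCNCCC, the kind of CACCC or GC box bound by KLF1 and related factors. AGATAA was in 0 of the 10 windows and in 11.2% of all 32851 promoters. CCNCNCCC, counting overlapping matches, was in 6 of 10 windows and in 49.5% of all promoters. A match in the letters is not a binding site, and the absence of one says only that these letters are not in this window. The 4 windows below are shown because they belong to the genes on which the results turn: 3 of the genes higher in Nix_KO, and Ang, whose window is also 1 of the 2 of Rnase4. Capitals mark CCNCNCCC or its reverse complement, with 0 matches in the first window, 3 in the second, 5 in the third and 3 in the fourth.
Ccnb1ip1, chr14:50795679-50795978, minus strand: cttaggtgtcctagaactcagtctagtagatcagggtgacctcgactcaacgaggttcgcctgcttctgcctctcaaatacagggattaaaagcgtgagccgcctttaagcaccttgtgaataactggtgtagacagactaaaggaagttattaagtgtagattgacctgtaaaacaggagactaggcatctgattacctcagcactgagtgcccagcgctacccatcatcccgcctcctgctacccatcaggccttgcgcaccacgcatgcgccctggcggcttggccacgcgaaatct
Lmbr1, chr5:29378341-29378640, minus strand: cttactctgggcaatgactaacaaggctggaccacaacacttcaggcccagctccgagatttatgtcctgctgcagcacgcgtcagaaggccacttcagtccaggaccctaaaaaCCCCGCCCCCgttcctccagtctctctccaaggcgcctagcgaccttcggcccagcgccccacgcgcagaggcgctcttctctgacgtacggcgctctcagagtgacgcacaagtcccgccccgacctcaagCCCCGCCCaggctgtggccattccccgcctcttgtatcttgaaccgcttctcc
Fn3krp, chr11:121421123-121421422, plus strand: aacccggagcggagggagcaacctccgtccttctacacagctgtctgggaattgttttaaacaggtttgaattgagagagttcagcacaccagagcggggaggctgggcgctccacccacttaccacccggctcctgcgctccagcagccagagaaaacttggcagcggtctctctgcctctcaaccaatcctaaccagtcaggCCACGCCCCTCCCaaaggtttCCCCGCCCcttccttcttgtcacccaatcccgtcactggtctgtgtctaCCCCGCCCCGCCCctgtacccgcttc
Ang and Rnase4, chr14:51090827-51091126, plus strand: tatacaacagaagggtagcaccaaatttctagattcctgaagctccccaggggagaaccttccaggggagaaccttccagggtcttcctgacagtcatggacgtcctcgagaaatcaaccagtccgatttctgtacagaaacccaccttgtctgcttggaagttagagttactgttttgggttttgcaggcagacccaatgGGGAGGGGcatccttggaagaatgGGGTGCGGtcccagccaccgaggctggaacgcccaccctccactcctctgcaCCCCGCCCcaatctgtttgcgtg

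Both long noncoding RNA genes were higher in Nix-null spleen. BC018473 (probe set 1427451_a_at, chromosome 11) read 9.28, 9.28, 8.94 and 8.03 in Nix_KO arrays, against 2.77, 3.58, 3.78 and 3.61 in WT arrays. Every WT array was at background and no Nix_KO array came near them, which left a gap of 4.25 log2 units. The means were 8.88 ± 0.59 in Nix_KO and 3.43 ± 0.45 in WT (SD, n = 4 each), at least 14.75-fold. 2500002B13Rik (1442015_at, chromosome 8) read 8.98, 9.22, 9.83 and 9.29 in Nix_KO arrays, against 6.75, 6.77, 6.89 and 5.60 in WT arrays. This RNA was present in every WT spleen, with WT 6 lower than the other 3. Its means were 9.33 ± 0.36 in Nix_KO and 6.50 ± 0.60 in WT (SD, n = 4 each), a difference of 2.82 (7.07-fold) with a gap of 2.08.

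Ccnb1ip1, the meiotic ligase gene, was also higher in Nix-null spleen. Its only probe set (1435998_at, chromosome 14) read 8.57, 7.62, 7.83 and 9.10 in Nix_KO arrays, against 2.89, 3.73, 4.02 and 3.44 in WT arrays. All 4 WT arrays were below 5 and the gap was 3.60. The means of 8.28 ± 0.68 in Nix_KO and 3.52 ± 0.48 in WT (SD, n = 4 each) put it at least 9.70-fold higher.

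Lmbr1, Fn3krp and Ammecr1 were higher in Nix-null spleen too. Lmbr1 (1426272_at, chromosome 5) read 8.68, 7.67, 8.28 and 8.01 in Nix_KO arrays, against 5.08, 5.47, 5.17 and 5.27 in WT arrays. The WT arrays lay within 0.39 log2 units of each other, and the gap was 2.20. Means were 8.16 ± 0.43 in Nix_KO and 5.25 ± 0.17 in WT (SD, n = 4 each), a difference of 2.91 (7.52-fold). Fn3krp, the deglycating kinase gene (1443050_at, chromosome 11), read 6.18, 7.46, 6.51 and 6.52 in Nix_KO arrays, against 4.14, 4.01, 4.29 and 4.11 in WT arrays. All WT arrays were below 5, so their spread was not measured. The means were 6.67 ± 0.55 in Nix_KO and 4.14 ± 0.12 in WT (SD, n = 4 each), at least 3.17-fold, with a gap of 1.89. Ammecr1 (1430697_at, chromosome X) read 7.90, 7.75, 8.45 and 7.51 in Nix_KO arrays, against 5.76, 5.46, 5.5 and 4.74 in WT arrays. WT 6 was again the lowest, and the gap was 1.74. Means were 7.90 ± 0.40 in Nix_KO and 5.37 ± 0.44 in WT (SD, n = 4 each), at least 5.54-fold.

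Gfap, the astrocyte filament gene, was read by 3 probe sets on chromosome 11. The widest gap was that of 1426509_s_at, which read 7.33, 7.63, 7.63 and 8.05 in Nix_KO arrays, against 5.67, 5.58, 5.41 and 4.31 in WT arrays. All Nix_KO arrays were above all WT arrays by at least 1.66 log2 units. The means were 7.66 ± 0.30 in Nix_KO and 5.24 ± 0.63 in WT (SD, n = 4 each), at least 4.74-fold. Of 8 other glial and Schwann cell genes on the array 4 passed the filter, and 0 of these 4 passed limma in either direction (1 at an unadjusted p under 0.05). The mean level of the 8 was 5.36 ± 0.11 in Nix_KO arrays (5.28 to 5.53) and 5.30 ± 0.05 in WT arrays (5.24 to 5.36; SD, n = 4 each). Of the 8, S100b, Aqp4 and Cdh19 read below 5 in every array, while Mbp (8.82 to 9.51), Ngfr (6.35 to 7.36), Slc1a3 (6.28 to 7.18) and Sox10 (5.79 to 6.72) read above 5 in every array.

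**Figure D1:**
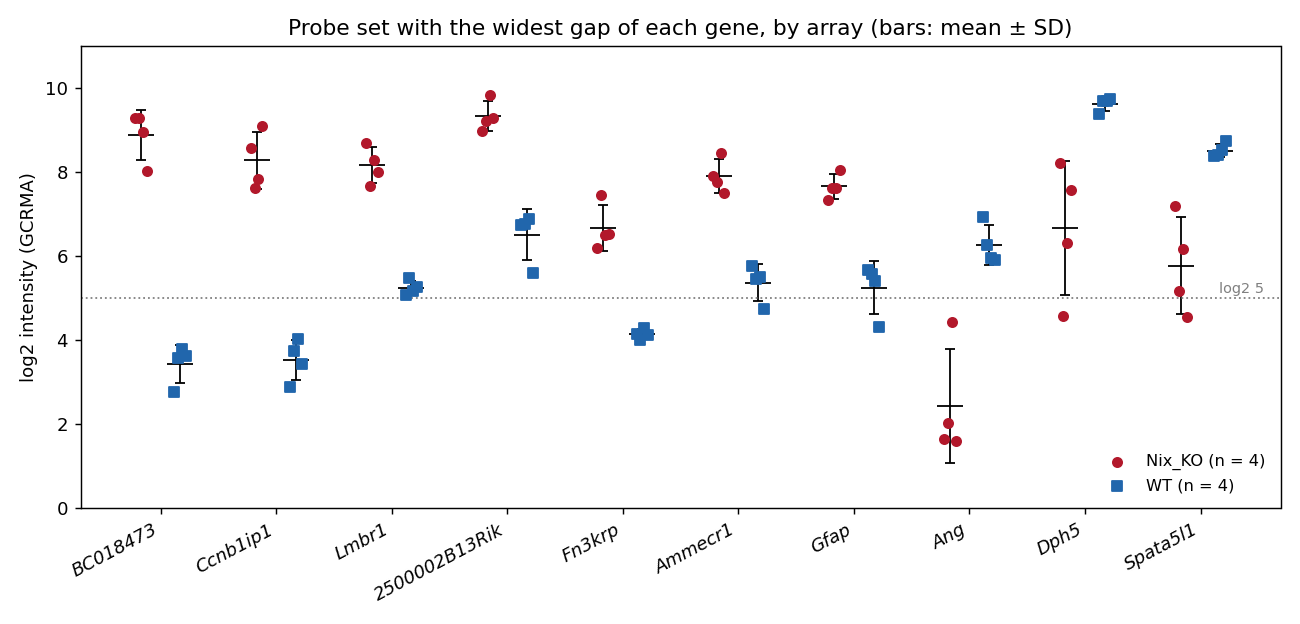
Log2 intensity of the probe set with the widest gap of each of the 10 genes (vertical axis), with Nix_KO arrays as red circles left of WT arrays as blue squares. Black bars give the mean and SD of 4 arrays and the dotted line marks log2 5. In the 7 genes on the left all Nix_KO arrays lie above all WT arrays, and in Ang, Dph5 and Spata5l1 all lie below.

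Ang, Dph5 and Spata5l1 were lower in Nix-null spleen. Ang, the angiogenin gene (1438936_s_at, chromosome 14), read 1.64, 2.03, 4.43 and 1.60 in Nix_KO arrays, against 6.92, 6.27, 5.96 and 5.90 in WT arrays. All Nix_KO arrays were below 5, where values have no order. The means were 2.43 ± 1.35 in Nix_KO and 6.26 ± 0.47 in WT (SD, n = 4 each), at least 2.40-fold lower, with a gap of 1.47. With values below 5 set to 5 the log2 difference was -1.26.

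Dph5 and Spata5l1 were scattered in Nix-null spleens and nearly level in WT ones. Dph5, the diphthamide methyltransferase gene (1439049_at, chromosome 3), read 8.21, 4.58, 6.30 and 7.57 in Nix_KO arrays, against 9.37, 9.69, 9.68 and 9.74 in WT arrays. The range was 3.63 log2 units in Nix_KO and 0.37 in WT, and the gap was 1.16. Means were 6.67 ± 1.60 in Nix_KO and 9.62 ± 0.17 in WT (SD, n = 4 each), at least 7.22-fold lower. Without Nix_KO 2, its lowest array, the log2 difference was -2.26 in place of -2.96. Spata5l1, the AAA ATPase gene (1455863_at, chromosome 2), read 7.18, 5.17, 6.17 and 4.55 in Nix_KO arrays, against 8.39, 8.40, 8.52 and 8.73 in WT arrays. Here too Nix_KO 10 was the closest to WT, while the lowest array was Nix_KO 6. The range was 2.63 in Nix_KO and 0.33 in WT, with means of 5.77 ± 1.15 in Nix_KO and 8.51 ± 0.16 in WT (SD, n = 4 each), at least 6.18-fold lower.

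The other probe sets of these genes seldom showed a difference of the same size. Of the 20 probe sets, 17 had genotypes that did not overlap as read and 3 overlapped. With values below 5 set to 5, 11 of the 20 were apart. Of the 8 that failed the filter, 6 did not overlap, where 31.6% of all 22690 probe sets that failed it did not. Most such gaps were narrow, and 5 of the member probe sets stayed below 5 in all 8 arrays. More than 1 probe set was present for 6 genes, with 16 probe sets in all.

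Lmbr1 had 4. The probe set 1442371_at read 5.76, 5.94, 5.45 and 4.95 in Nix_KO arrays, against 4.33, 4.25, 4.35 and 4.81 in WT arrays, a difference of 1.09 with a gap of 0.14. Probe set 1425605_a_at gave 3.07, 3.53, 3.59 and 4.88 in Nix_KO arrays, against 2.47, 2.56, 2.64 and 2.99 in WT arrays. Probe set 1442371_at leaned the same way as the main one, but all its WT arrays and Nix_KO 6 lay below 5. With values below 5 set to 5 it was at least 1.44-fold higher. The values of 1425605_a_at lay below 5 in every array, where they have no order. The fourth, 1426273_at, comes from the same source sequence as the main one in the platform annotation. It read 3.16, 3.31, 3.15 and 3.12 in Nix_KO arrays, against 3.09, 2.58, 3.07 and 3.0 in WT arrays, a difference of 0.25 where the main one gave 2.91.

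The second probe set of Gfap past the filter, 1426508_at, read 6.21, 6.67, 7.10 and 7.69 in Nix_KO arrays, against 6.09, 5.77, 6.0 and 4.74 in WT arrays. Its genotypes were apart by only 0.12, and its difference was 1.27 where 1426509_s_at gave 2.42. The third, 1440142_s_at, read 2.42, 1.90, 4.0 and 4.05 in Nix_KO arrays, against 1.83, 1.78, 1.5 and 1.5 in WT arrays. Both tested probe sets were thus higher in Nix_KO, and the third lay below 5 in every array, where values have no order. For BC018473 the second probe set, 1427453_at, read 2.65, 2.99, 2.73 and 2.63 in Nix_KO arrays, against 2.63, 2.50, 2.57 and 2.57 in WT arrays. It was at background in both genotypes and showed nothing of the 4.25 gap of the first. Ammecr1's second probe set, 1450546_at, was likewise at background, with 2.87, 3.18, 2.88 and 2.90 in Nix_KO arrays against 2.80, 2.49, 2.54 and 2.75 in WT arrays.

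Both remaining genes had probe sets that disagreed. Dph5's second probe set, 1452839_at, read 7.65, 7.57, 7.72 and 8.17 in Nix_KO arrays, against 8.42, 8.84, 7.99 and 8.58 in WT arrays. It passed the filter, overlapped by 0.18 and differed by -0.68, where the first differed by -2.96. The scatter of the first among Nix_KO arrays was absent from it: Nix_KO 2, at 4.58 on the first, was level with the others here. For Ang, 1438937_x_at read 2.77, 3.54, 4.06 and 3.04 in Nix_KO arrays, against 5.03, 5.48, 4.99 and 5.16 in WT arrays. As read, that is the same direction as the main probe set, with a difference of -1.81 and a gap of 0.93. This probe set failed the filter, and all its Nix_KO arrays and WT 5 lay below 5. With values below 5 set to 5 it was at least 1.12-fold lower. The third, 1450717_at, read 4.45, 5.37, 4.39 and 4.31 in Nix_KO arrays, against 5.07, 4.51, 4.42 and 4.51 in WT arrays, with a difference of 0.00. Probe sets of 1 gene read different stretches of its transcripts, and which transcripts these are was not analysed here. The part of sequence differences under the probes was not tested.

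**Figure D2:**
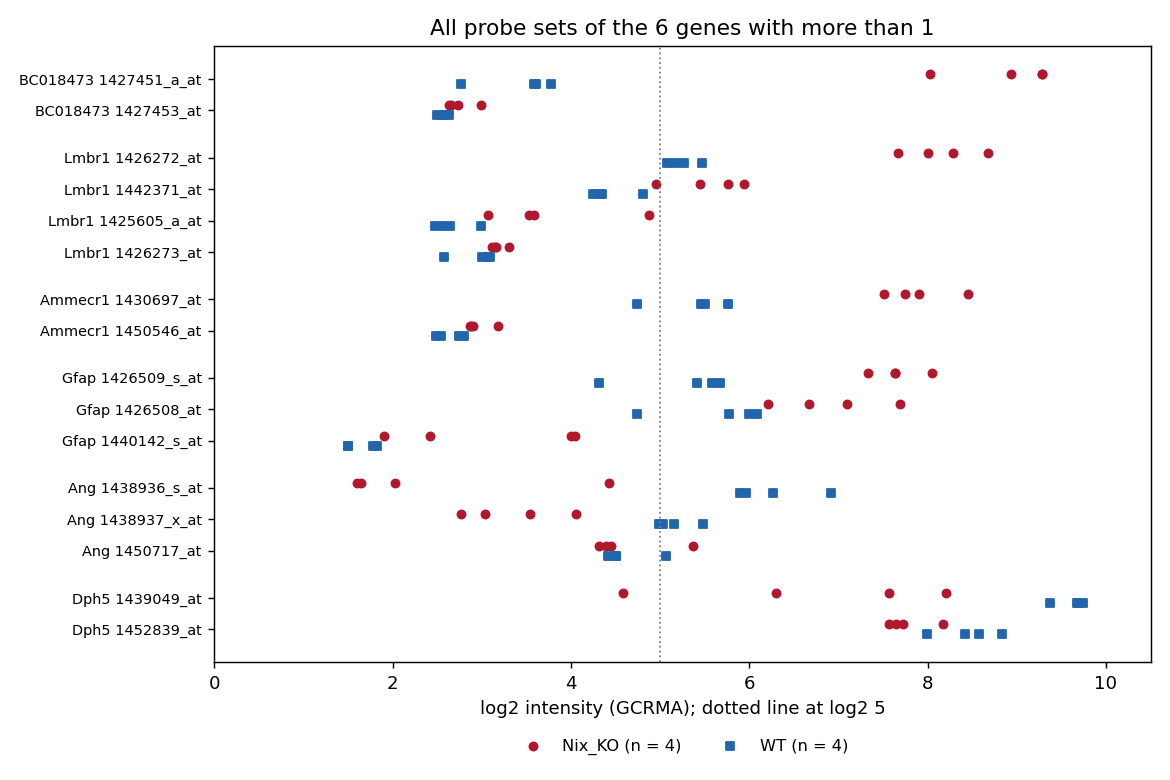
Log2 intensity (horizontal axis) of all 16 probe sets of the 6 genes that have more than 1, with Nix_KO arrays as red circles above WT arrays as blue squares and a dotted line at log2 5. In each gene the uppermost probe set has the wide gap, and the others lie closer together or overlap.

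For values as read, the gap set against the spread within a genotype differed between the higher genes and Dph5 and Spata5l1. In all 7 higher genes, the gap of the main probe set, as read, was wider than the range among Nix_KO arrays and than that among WT arrays. With values below 5 set to 5 this did not hold for Fn3krp, whose lowest Nix_KO array read 6.18 and whose Nix_KO range was 1.28. In Dph5 and Spata5l1 the gap exceeded the WT range but not the Nix_KO range. Ang read the same way, but its Nix_KO arrays all lay below 5, so neither its Nix_KO range nor the size of its gap was measured. Of these 10, BC018473, Ccnb1ip1 and Fn3krp had WT arrays wholly below 5 and Ang had Nix_KO arrays wholly below 5. Without the arrays Nix_KO 3, WT 3 and WT 5 the gaps of the 10 main probe sets were all above 0. The narrowest was 1.22 (Spata5l1). Of the 20 member probe sets 19 were then apart, with fewer arrays left to overlap. Of all 22347 tested probe sets 12209 were then apart, against 7726 with all arrays.

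**Figure D3:**
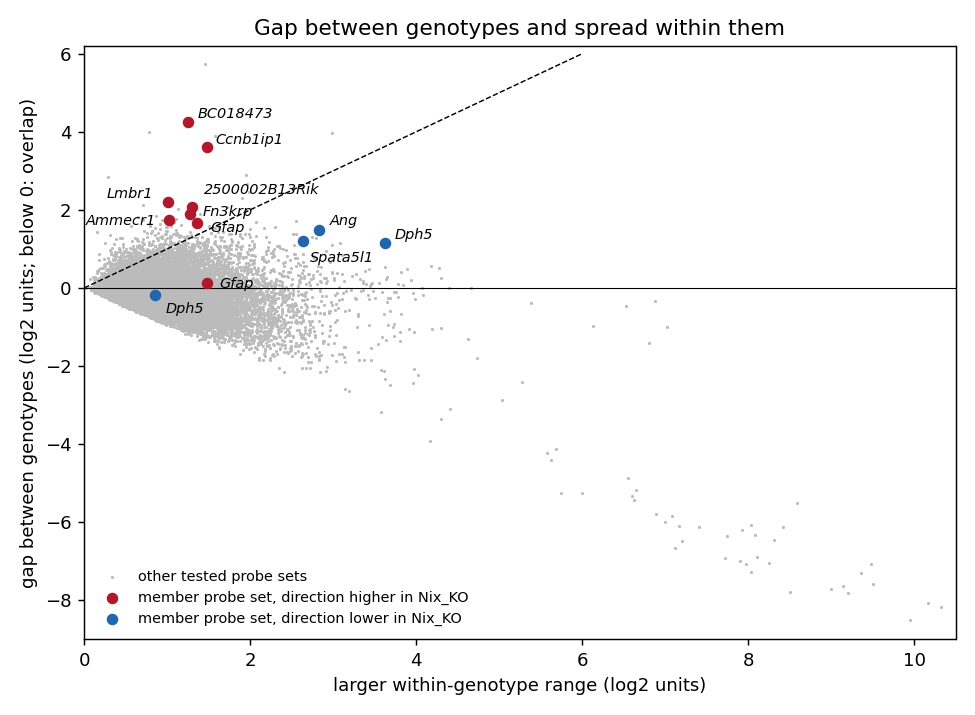
Gap between genotypes (vertical axis, log2 units) against the larger of the 2 within-genotype ranges (horizontal axis, log2 units) for all 22347 tested probe sets, with the 12 of the members coloured. Points above the dashed line have a gap wider than either range: the main probe sets of the 7 higher genes lie there, while those of Ang, Dph5 and Spata5l1 and the second probe sets of Gfap and Dph5 lie below it.

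The 5 other named genes with the widest gap in each direction were taken by the gap itself, over the 8 arrays, so their differences too are descriptions. In Xpo7 and Cenpe the WT arrays, and in Adamdec1 and Pdk1 the Nix_KO arrays, were all below 5, so these gaps rest in part on background levels. Among those higher in Nix_KO, Xpo7, a nuclear transport receptor, had a gap of 2.66, with 7.10 ± 0.90 in Nix_KO and 2.82 ± 0.37 in WT (SD, n = 4 each). Dmtn, which encodes dematin of the red cell membrane skeleton, had 2.47, the kinetochore motor gene Cenpe 2.02, the F-box gene Fbxo30 1.84 and Depdc1a 1.77. Among those lower, Adamdec1, a secreted metalloprotease gene, had a gap of 5.74, with 2.99 ± 0.63 in Nix_KO and 10.04 ± 0.32 in WT (SD, n = 4 each). The others were Pdk1, a mitochondrial kinase gene (1.53), Ly6d, a surface marker of early B cells (1.4), Xkrx (1.29) and Laptm5, a lysosomal gene of blood cells (1.28). Probe sets of these genes, tested or not, were counted where the genotypes were apart in the direction given above. These were 4 of 4 for Fbxo30, 3 of 3 for Dmtn, 2 of 2 for Cenpe and 5 of 8 for Xpo7. They were 2 of 4 for Pdk1 and 3 of 5 for Laptm5, and each other gene had 1 probe set.

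Ccnb1ip1 and Ang lie on chromosome 14, which also carries Bnip3l, with 704 and 677 genes of the RefSeq table between each and Bnip3l. Both are far from it in that order, and 26 genes lie between them. Xpo7, Dmtn and Adamdec1 are on the same chromosome and nearer to Bnip3l, with 104, 99 and 31 genes between. Chromosome 14 held 369 of 10997 genes with a tested probe set (3.36%), 17 of the 226 with a gap of at least 1 (7.52%) and 4 of the 8 with a gap of at least 2. These 4 were Adamdec1, Ccnb1ip1, Dmtn and Xpo7. The chromosome was looked at after the values were seen, and no test was made. The other 8 members lie on chromosomes 2, 3, 5, 8, 11 and X. On chromosome 11, 175 table genes separate BC018473 from Fn3krp and 357 separate Gfap from BC018473.

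Marker genes of several cell types differed between the same arrays as the 10 genes. Of 16 erythroid marker genes 16 passed limma as higher in Nix_KO, against 13.1% of all 11027 genes. Their mean level was 11.96, 12.22, 12.54 and 12.47 in Nix_KO arrays, against 11.01, 10.54, 10.41 and 9.21 in WT arrays. WT spleens differed from each other here by 1.80 log2 units, nearly as much as the 2 genotype means of 12.29 ± 0.26 in Nix_KO and 10.29 ± 0.76 in WT (SD, n = 4 each) differed. All 14 cell division genes were higher too, with 11.03, 11.36, 11.53 and 11.55 in Nix_KO arrays against 10.18, 9.71, 9.16 and 9.17 in WT arrays. All 9 B cell genes were lower, against 21.3% of all genes, with 10.33, 9.58, 9.72 and 9.92 in Nix_KO arrays and 11.24, 11.54, 11.37 and 11.45 in WT arrays. Neutrophil genes were higher in 9 of 10 and stromal genes lower in 9 of 10, while T cell genes were lower in 6 of 9 and macrophage genes in 3 of 10. The part of cell content in the members' differences was not tested.

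The WT arrays, which differ in erythroid level within a genotype, did not order all members alike, as far as these read above background. WT 6 was the lowest in the erythroid list and also in 2500002B13Rik (5.60), Ammecr1 (4.74) and Gfap (4.31). The main Gfap probe set followed the erythroid order in all 4 arrays, which is also the order of the neutrophil list (10.20, 9.68, 8.27 and 7.79 in WT arrays). Its other tested probe set, 1426508_at, did not follow it in all 4. BC018473, Ccnb1ip1 and Fn3krp were below 5 in all WT arrays, so their order there was not measured. Lmbr1 read 5.08 to 5.47 in WT arrays, just above that level, and was lowest in WT 3, the WT array with the highest erythroid level. Among Nix_KO arrays, the main Dph5 probe set followed the order of the B cell list, lowest in Nix_KO 2 and highest in Nix_KO 10. The stroma and endothelium list had the same order (8.17, 7.40, 7.85 and 8.02 in Nix_KO arrays), and the second Dph5 probe set did not follow it. The B cell list spanned 0.75 log2 units and Dph5 3.63. Spata5l1 was also highest in Nix_KO 10 but lowest in Nix_KO 6. With 4 arrays a genotype, these orders are descriptions.

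**Figure D4:**
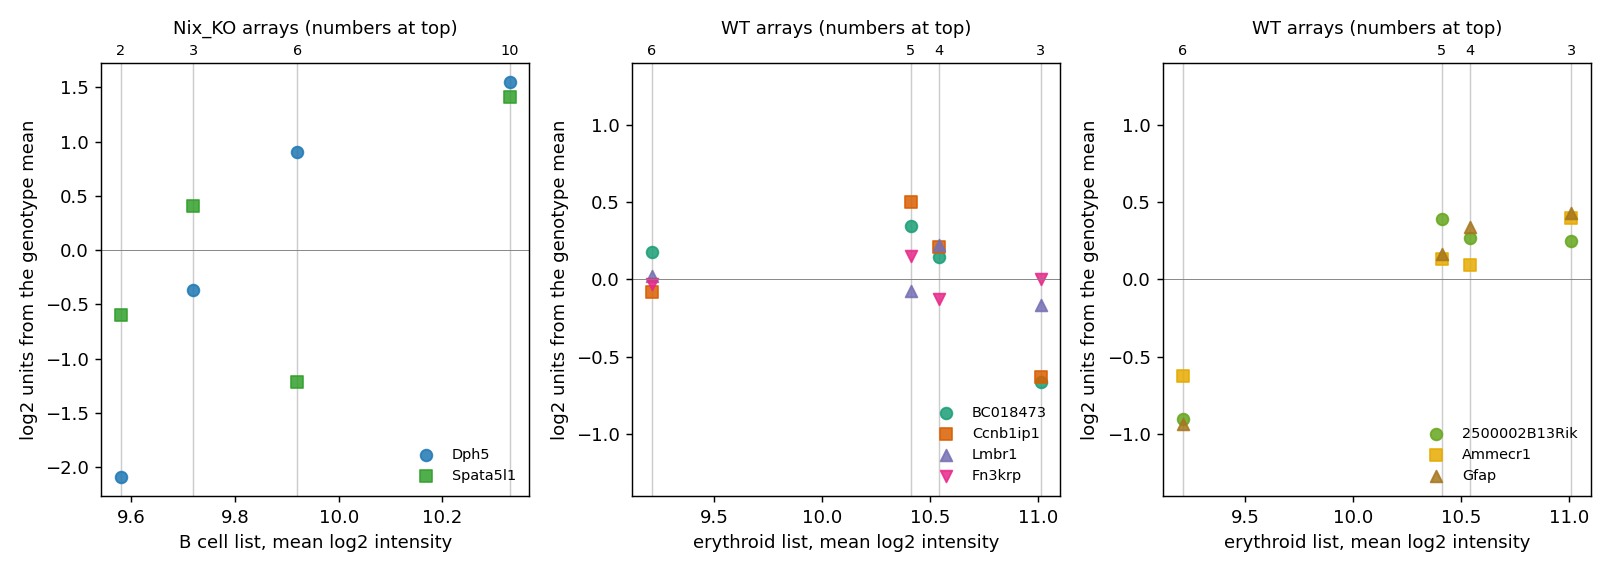
Level of each gene's main probe set in each array of 1 genotype, as log2 units from that genotype's mean (vertical axis), against the mean log2 intensity of a marker list (horizontal axis), with array numbers at the top. The left panel sets Dph5 and Spata5l1 in Nix_KO arrays against the B cell list, and the other panels set the 7 genes higher in Nix_KO, in WT arrays, against the erythroid list: 2500002B13Rik, Ammecr1 and Gfap are lowest in WT 6, and Lmbr1 in WT 3. BC018473, Ccnb1ip1 and Fn3krp read below 5 in all WT arrays, where values have no order.

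Genes that work with the members were read from lists of relatives and partners, 55 genes in all. Of these 31 were tested, 4 passed as higher and 6 as lower in Nix_KO, and 21 did not pass. The share that passed, 32.3%, was near the 34.4% of all 11027 genes, and their median log2 difference was -0.09, against -0.15 for all genes. Without the 3 arrays with pancreatic signal, 0 partners passed limma (10 at an unadjusted p under 0.05). Another 15 were too dim to test, and 9 were not analysed here.

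Among partners of Ccnb1ip1, both tested cell division genes were higher, and 0 of the 3 tested crossover genes passed. Ccnb2, a mitotic cyclin gene, was higher by 1.97 ± 0.31 (SE, limma adjusted p = 0.00347) and its kinase gene Cdk1 by 1.70 ± 0.30 (limma adjusted p = 0.00439). Both also stand in the cell division list. Msh4, Msh5, Sycp1, Sycp3, Spo11 and Dmc1, all genes of meiotic recombination or chromosome pairing, fell short of the filter. Mlh3, Mus81 and Cntd1, of crossover formation or DNA repair, differed by 0.30, -0.42 and 0.49 and did not pass (limma adjusted p = 0.187, 0.101 and 0.0947).

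Fn3k, the fructosamine kinase gene next to Fn3krp, was also higher in Nix-null spleen. It read 10.40, 11.27, 11.10 and 10.87 in Nix_KO arrays, against 9.09, 9.0, 8.63 and 6.90 in WT arrays. The genotypes were apart by 1.31, and WT 6 was the lowest array. The log2 difference was 2.50 ± 0.45 (SE, limma adjusted p = 0.00467). Lmbrd1, a lysosomal relative of Lmbr1, fell by 0.75 ± 0.24 (SE, limma adjusted p = 0.0417), a call lost without Nix_KO 2 or 3 or WT 3, 4 or 6 (limma adjusted p up to 0.116). Lmbr1l and Ammecr1l, the closest relatives of their members, differed by -0.20 and -0.35 and did not pass (limma adjusted p = 0.413 and 0.304). Shh, the target of the Lmbr1 enhancer, differed by 0.29 (limma adjusted p = 0.281).

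Of the diphthamide pathway, 2 of 6 tested genes passed (33.3%, near the 34.4% of all genes), both as lower, where 21.3% of all genes passed as lower. Dph2, which takes part in its first step, fell by 0.71 ± 0.18 (SE, limma adjusted p = 0.0187), and Eef2, the factor that carries the modification, fell by 0.51 ± 0.15 (SE, limma adjusted p = 0.0285). Dph2 lost its call without WT 4 or WT 6 (limma adjusted p up to 0.0582), and Eef2 without Nix_KO 3 or any 1 WT array (limma adjusted p up to 0.0795). Dph3, Dnajc24, Dph6 and Dph7, which act in the first or last steps, differed by 0.52, 0.42, -0.09 and 0.25 and did not pass. Dph5 was chosen for its gap, so its -2.96 is not set against these genes, and its second probe set differed by -0.68. Of the AAA ATPase list, Cinp, which in human cells joins SPATA5L1 in a complex, was higher by 0.91 ± 0.25 (SE, limma adjusted p = 0.0232), a call lost without WT 4, 5 or 6 (limma adjusted p up to 0.069). Spata5, the nearest relative of Spata5l1, differed by 0.37 and Vcp by 0.23 (limma adjusted p = 0.122 and 0.205).

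Rnase4 has 2 promoter windows in RefSeq, of which the first is that of Ang and the second, with 0 matches to CCNCNCCC, is its own. It read 7.75, 7.32, 8.05 and 7.99 in Nix_KO arrays, against 8.40, 8.16, 7.5 and 8.47 in WT arrays. The genotypes overlapped, and the difference was -0.36 ± 0.25 (SE, limma adjusted p = 0.302). Rnase6, a ribonuclease gene of the same cluster, fell by 0.93 ± 0.16 (SE, limma adjusted p = 0.00443). Rnase1, the pancreatic ribonuclease gene, read 11.49 in Nix_KO 3, with 10.26 in WT 3 and 8.33 in WT 5, and from 4.41 to 5.42 in the other 5 arrays. It was thus high in the 3 arrays with pancreatic signal and did not pass (limma adjusted p = 0.744). Rnh1, the inhibitor that binds angiogenin, differed by -0.63 ± 0.24 (SE, limma adjusted p = 0.0738). Among intermediate filaments other than Gfap, 2 of 5 tested genes passed (40.0%, against 34.4% of all genes), both as lower. Vim, of mesenchymal and blood cells, fell by 0.90 ± 0.21 (SE, limma adjusted p = 0.0112), and Des, of muscle, fell by 1.16 ± 0.26 (SE, limma adjusted p = 0.0104). Synm differed by -0.80 (limma adjusted p = 0.0548), and Nes, Nefl and Nefm were too dim to test.

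The genes that lie next to the members were read in the same fit. The 5 nearest tested genes on each side, in the order of the RefSeq table, came to 95 distinct genes. Of these 19 were higher, 12 lower and 64 did not pass, so 31 passed (32.6%, against 34.4% of all genes), with a median log2 difference of 0.00. A gap of at least 1 was seen in 2 of the 95, St6galnac1 and Fn3k. Of the 31 calls, 20 held whichever single array was left out and 11 did not, and 6 neighbours passed without the 3 arrays with pancreatic signal.

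St6galnac1, a sialyltransferase gene, is the next table gene after BC018473 and was higher as well. It read 7.20, 6.99, 7.06 and 5.32 in Nix_KO arrays, against 3.44, 3.10, 3.84 and 3.93 in WT arrays. Every WT array was below 5, as in BC018473, so it passed the filter only through the Nix_KO arrays and had to differ. With values below 5 set to 5 it was at least 3.12-fold higher. It was the 1 neighbour of the 95 with a genotype wholly below 5. St6galnac2, the sialyltransferase gene on the other side with 1 table gene between, differed by 0.32 (limma adjusted p = 0.132). Mettl23, a methyltransferase gene with 3 table genes between it and BC018473, fell by 1.56 ± 0.21 (SE, limma adjusted p = 0.0025). Of the 10 neighbours of BC018473, 2 were higher and 2 lower.

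2500002B13Rik lies directly between Sap30, of a histone deacetylase complex, and Hmgb2, a chromatin protein gene of dividing cells, and both were higher. Hmgb2 read 12.73, 12.78, 13.08 and 13.04 in Nix_KO arrays, against 12.15, 11.45, 10.87 and 11.39 in WT arrays, a difference of 1.44 ± 0.25 (SE, limma adjusted p = 0.00433). Sap30 was higher by 0.68 ± 0.19 (SE, limma adjusted p = 0.0251), a call lost without Nix_KO 2 or 6 or WT 4, 5 or 6 (limma adjusted p up to 0.0753). In all, 5 of its 10 neighbours were higher and 0 lower. Near Gfap, 1 of 10 neighbours passed: Kif18b, a mitotic kinesin gene, higher by 1.81 ± 0.28 (SE, limma adjusted p = 0.00336). Of the 10 around Lmbr1 4 were higher and 0 lower, the largest being Tyms, of thymidylate synthesis (1.09 ± 0.25 SE, limma adjusted p = 0.0113), and Paxip1, of the DNA damage response (1.08 ± 0.18 SE, limma adjusted p = 0.00371). Alas2, the first enzyme gene of erythroid haem synthesis, is the fourth tested gene after Ammecr1 but 113 table genes away, and was higher by 1.25 ± 0.21 (SE, limma adjusted p = 0.00386).

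Around Ccnb1ip1, the next tested genes Ttc5 and Parp2 differed by 0.48 and -0.19 and did not pass (limma adjusted p = 0.067 and 0.47). Gm26782, between Ccnb1ip1 and Ang and within 5 tested genes of each, fell by 2.10 ± 0.41 (SE, limma adjusted p = 0.00639), with means of 4.94 in Nix_KO and 7.03 in WT. Beside Dph5, Slc30a7 and A930005H10Rik differed by -0.48 and 0.08 and did not pass (limma adjusted p = 0.114 for the first). S1pr1, a lymphocyte receptor gene 1 table gene further out, fell by 1.52 ± 0.37 (SE, limma adjusted p = 0.0138). Gatm, next to Spata5l1, differed by -0.37 (limma adjusted p = 0.409). The members were chosen for their wide gaps, so their size is not set against that of their neighbours.

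**Figure D5:**
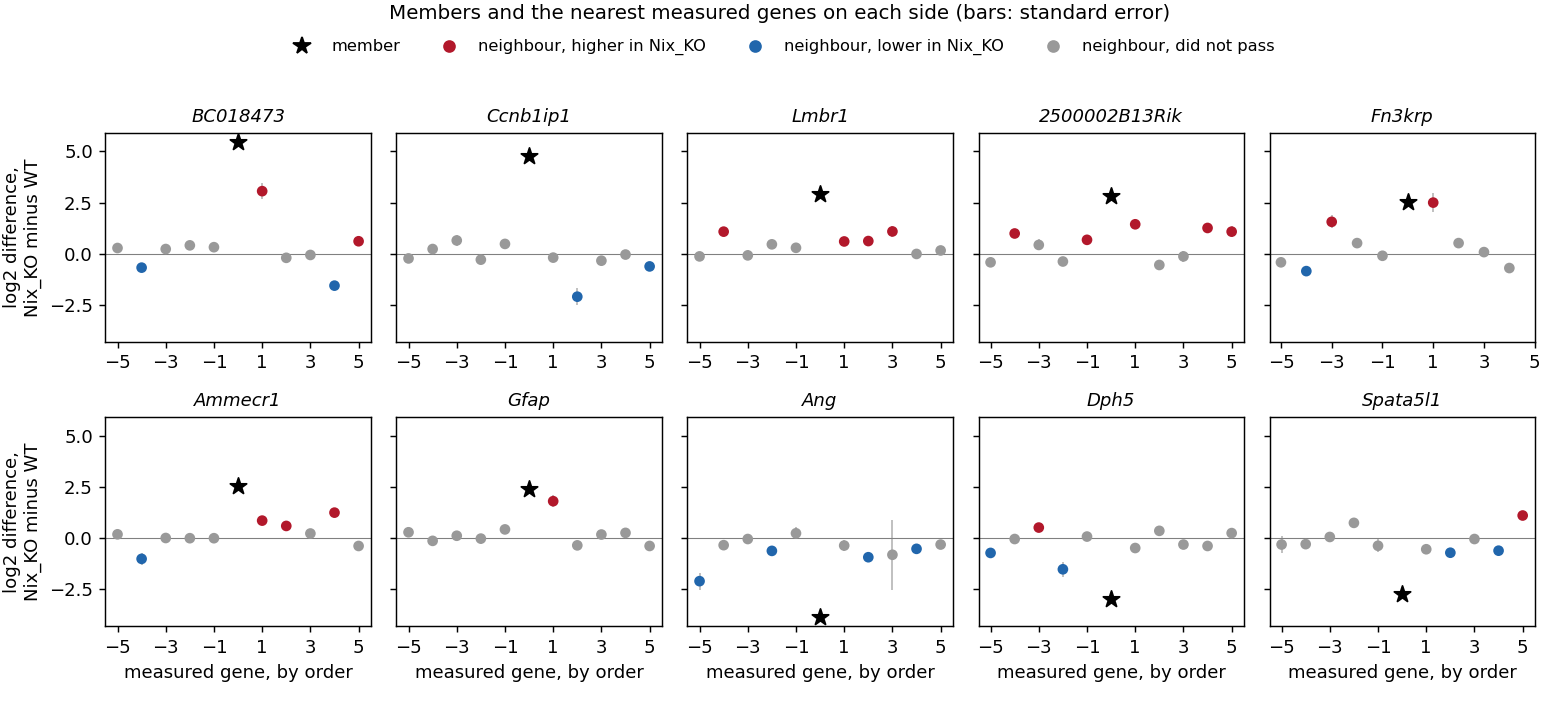
Log2 difference, Nix_KO minus WT (vertical axis, bars give the standard error), of each member (black star) and of up to 5 tested genes on each side by their order on the chromosome (horizontal axis). Red points were higher, blue points lower and grey points did not pass limma. BC018473, Ccnb1ip1, Fn3krp, Ang and the neighbour St6galnac1 have 1 genotype wholly below 5 and are plotted with their values as read.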

How the data were processed

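Total RNA of 8 spleens was hybridised to 1 array each, per the labels. The authors deposited 1 linear intensity per probe set and array, made with GCRMA per the submitters' processing notes; the sources used here give neither its version nor any later scaling. The planned tests had assumed log2 values, and the deposited intensities were therefore log2-transformed before anything else. Of 45101 probe sets 64 controls were left out, and 22347 of 45037 passed the filter (log2 of at least 5 in at least 4 arrays). Limma 3.58.1 in R 4.3.3 (lmFit, eBayes, two-sided) was run on all of them, with Benjamini-Hochberg adjustment over all and a threshold of 0.05, and tested on simulated data. The arrays' number, 4 per genotype, limits the precision. The p-values weigh each difference against the spread between these animals, which limma moderates over all tested probe sets. Gene names came from the platform's annotation (34945 with 1 gene, 932 with several, 9160 with none). A partner or neighbour is its gene's tested probe set of highest mean.

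The members, the lists and the tests were chosen with earlier results of these data known. Named genes are all members with every probe set, partners from the lists, neighbours that passed or lie next to a member, and the 5 named genes with the widest gap each way. Alternatives were other filters, scalings and floors, leaving out arrays, and a replicate block. The numbers 3 and 6 occur in both genotypes; deviations of same-numbered arrays correlated at 0.252 and 0.147 over probe sets, but 2 numbers are too few to treat them as pairs.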

Additional observations from a re-analysis of the deposited data

Results flagged for a closer look

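In groups of 4 arrays, the single array farthest out was compared with the spread of the others by Dixon's ratio at the 95% level. In all, 80 groups were examined and 12 arrays stood out, where chance gives about 1 in 20. Of the main probe sets of the members, Ang read 4.43 in Nix_KO 3 against 1.60 to 2.03 in the other Nix_KO arrays, Dph5 read 9.37 in WT 3 against 9.68 to 9.74, and 2500002B13Rik read 5.60 in WT 6 against 6.75 to 6.89. Of their other probe sets, Lmbr1 1442371_at read 4.81 in WT 6, Ammecr1 1450546_at read 3.18 in Nix_KO 2, and Ang 1450717_at read 5.37 in Nix_KO 2 and 5.07 in WT 3. Among the genes with the next widest gaps, Xpo7 read 3.37 in WT 4, Fbxo30 9.66 in Nix_KO 3 and Pdk1 5.32 in WT 3. For the main Ang probe set, Lmbr1 1442371_at, Ammecr1 1450546_at and Xpo7 the whole group lay below 5, where values have no order. For Ang 1450717_at the other arrays of each group lay below 5. The neutrophil list averaged 11.18 in Nix_KO 2 against 10.48 to 10.56 in the others, and the pancreatic acinar list 12.52 in Nix_KO 3 against 5.09 to 5.95.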

How the results depend on the processing

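The log2 difference of each of the 10 members was computed again under the alternatives, which gave 130 differences. Of these 125 stayed within 1 SD, 5 moved and 0 reversed. With values below 5 set to 5 the differences were 3.28 for Ccnb1ip1, 3.88 for BC018473, 1.67 for Fn3krp and -1.26 for Ang. Then 11 in place of 17 member probe sets were apart (17 to 19 when 1 array was left out). With the replicate block 2500002B13Rik gave 3.38, 1 probe set passed (4920 at an unadjusted limma p under 0.05), and 0 partners and 0 neighbours passed (8 and 21 unadjusted). The 2 shared numbers do not establish pairs, so these counts do not measure a weaker effect. Without the 3 arrays with pancreatic signal 690 probe sets (6617 unadjusted), 0 partners (10 unadjusted) and 6 neighbours passed, and 12209 probe sets did not overlap, against 14894 with no filter and 7726 as reported. Leaving out 1 array gave 3996 (without WT 6; 4075 without WT 4) to 6993 probe sets, 6 to 12 partners and 21 to 32 neighbours, and 8084 to 9639 probe sets that did not overlap. With the 3 nearest genes on each side, 17 of 60 neighbours passed. The median difference of tested probe sets was -0.12, which favours small falls in the counts: 2789 passed as higher and 3922 as lower, against 3161 and 3406 after quantile normalisation and 3377 and 3073 with each array centred. Signal near background limits the folds of 4 members to lower bounds over their whole low genotype.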
